A study of Mus musculus with 8 samples.

Results

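The genes described here are the zinc-finger protein genes named Zfp500 to Zfp999 in the mouse retina. They were chosen by name and level: 184 protein-coding genes with at least 80 counts summed over the 8 libraries, of 197 protein-coding genes with such a name and 25477 genes in the table. The choice was made with earlier results of the comparison known, so every fold change below describes these genes and supports nothing about them as a group. Just outside the level limit lay Zfp750 with 43 and Zfp872 with 48 summed counts, and just inside it Zfp972 with 101 and Zfp968 with 107. The study measured polyadenylated RNA of retinas from 8 mouse samples, all named for choroidal neovascularization (CNV, the growth of choroidal vessels under the retina). Of these, 4 carry the genotype label PD-L1 knockout (knockout 1 to 4) and the other 4, titled WT-CNV, the label control (control 1 to 4). PD-L1, the ligand of the inhibitory immune receptor PD-1, is encoded by Cd274. The study's title asks how it bears on retinal microglia and vascular leakage. Strain, age, how the lesions were made, the knockout allele and the cells in which it acts are not given in the labels, nor is it stated that each library is a separate animal, so the p-values measure the spread between these libraries, which may be technical.

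Most Zfp genes of this range encode proteins with runs of C2H2 zinc fingers, small zinc-binding folds that each read a few bases of DNA and are joined by short, strongly conserved linkers. The largest subfamily carries a KRAB box near the start of the protein, which recruits the co-repressor Trim28 (KAP1). Trim28 in turn brings the histone methyltransferase Setdb1 and heterochromatin proteins, and together they silence chromatin, above all at retroelements. KRAB zinc-finger genes have multiplied by tandem duplication, so that many sit in clusters of close relatives.

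The shared architecture is visible in the DNA. In the mouse build GRCm38 (mm10), 743 fingers followed by the standard 5-residue linker were found in the coding sequences of 130 of the genes. The 15 bases of that linker took 128 different spellings, of which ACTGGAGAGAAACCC was the most frequent (101 fingers). The sequences below show 1 finger each of Zfp946 and Zfp943 and 2 of Zfp932, with the 15 linker bases in capitals. They are chosen because these are 3 of the genes that fell in the knockout and because they show how alike repeats within and between genes can be.
Zfp932, codon 330, chr5:110009425-110009502, plus strand: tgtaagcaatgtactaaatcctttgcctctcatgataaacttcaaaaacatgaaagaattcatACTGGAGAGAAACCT
Zfp932, codon 358, chr5:110009509-110009586, plus strand: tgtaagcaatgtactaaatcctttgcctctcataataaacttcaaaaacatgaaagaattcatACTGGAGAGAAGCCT
Zfp946, codon 244, chr17:22454996-22455073, plus strand: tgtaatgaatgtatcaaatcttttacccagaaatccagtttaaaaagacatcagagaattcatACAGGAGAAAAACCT
Zfp943, codon 182, chr17:21992478-21992555, plus strand: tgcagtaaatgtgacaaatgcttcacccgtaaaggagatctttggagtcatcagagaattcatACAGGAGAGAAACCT
The 2 fingers of Zfp932 were picked as its neighbouring pair with the most matching bases, and they matched at 76 of 78. Zfp946 and Zfp943 are each shown by the first finger followed by the linker, with no such choice. These fingers of Zfp946 and Zfp943, which lie in the same cluster on chromosome 17, matched at 56 of 78. Zfp946 and the Zfp932 finger at codon 330 matched at 54 of 78. Such likeness bears on the counts. Of the 181 genes with a transcript in the annotation, 44 shared more than 10% of their 75-base stretches with a transcript of another gene, and their values are uncertain to that degree because the counting rules for shared reads are not given. The median log2 fold change was −0.28 over those 44 genes and −0.15 over the 137 that shared 10% or less.

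Of the 184 genes, 15 fell and 1 rose in the knockout at an adjusted p under 0.05 (edgeR quasi-likelihood test, Benjamini-Hochberg over 16861 genes). Over all tested genes, 2.55% passed that threshold, 1.35% as lower and 1.2% as higher. The log2 fold change was negative for 136 of the 184 genes (73.9%, against 50.2% of all tested genes and 73.8% of the 160 genes Zfp1 to Zfp499 taken by the same rule). Its median was −0.17, with quartiles of −0.38 and 0.00 and a range from −0.93 to 0.65, against a median of −0.00 over all tested genes. In 38 genes every knockout library lay below every control library, and in 4 (Zfp553, Zfp622, Zfp628 and Zfp710) above. Over all tested genes, 5.78% were separated downwards and 5.19% upwards. In bulk tissue, fewer cells of a type and less RNA per cell cannot be told apart.

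**Figure D1:**
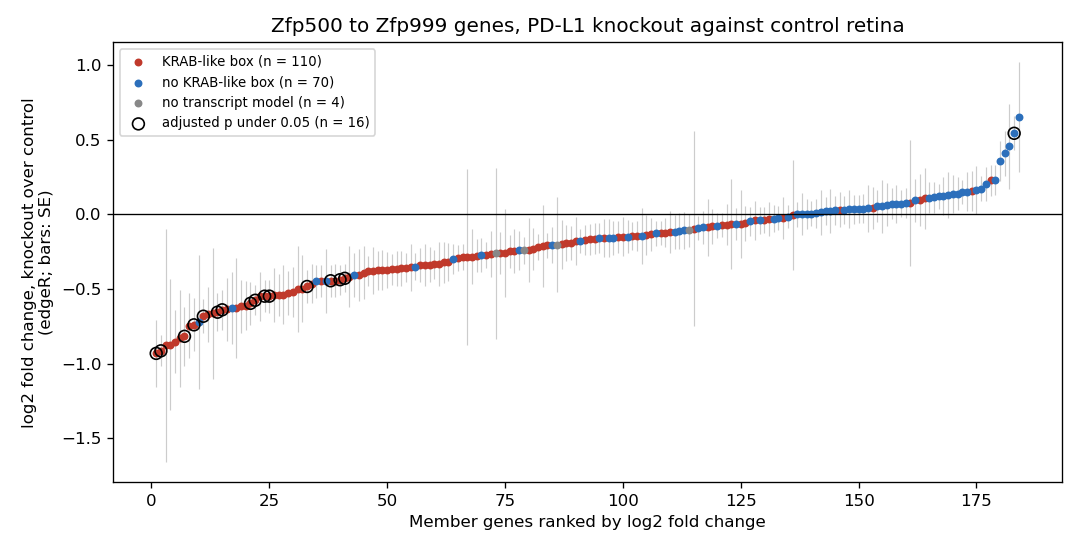
Log2 fold change (knockout over control, edgeR) of each of the 184 genes, ranked from lowest to highest. Bars are the SE, red marks the 110 genes with a KRAB-like box and blue the 70 without one, and rings mark the 16 genes past an adjusted p of 0.05. All 15 ringed genes at the low end are red, and the ringed gene at the high end, Zfp628, is blue.

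Zfp932 had the smallest adjusted p. It is a KRAB zinc-finger gene whose product, with that of its relative Gm15446, is known to silence endogenous retroviruses. Its level was 68.2, 53.5, 53.5 and 67.2 CPM (counts scaled by normalized library size) in knockout 1 to 4 and 124, 115, 115 and 103 CPM in control 1 to 4. The highest knockout library was thus well below the lowest control library. The means were 60.6 ± 8.19 and 114 ± 8.73 CPM (SD, n = 4 each), a log2 fold change of −0.91 with an SE of 0.10 (adjusted p = 0.000939 by edgeR). The gene spans chr5:109996502-110012266 and encodes 15 predicted fingers. It shared 32.6% of its 75-base stretches with other transcripts, mostly those of Gm15446, so the 2 genes may not be fully separated in the counts.

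Zfp946 lies in the chromosome 17 cluster (chr17:22424182-22456689) and has a KRAB-like box and 11 predicted fingers. It measured 33.3, 26.3, 31.7 and 39.4 CPM in the knockout libraries and 47.8, 53.9, 54.1 and 53.9 CPM in the controls. The groups did not overlap, and 3 of the controls lay within 1 CPM of each other. The log2 fold change was −0.68 (SE 0.11, adjusted p = 0.00952). Only 0.699% of its 75-base stretches occurred elsewhere.

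Zfp950 (chr19:61053840-61140844), with 17 predicted fingers, stood at 71.8, 58.3, 57.7 and 66.1 CPM in the knockouts and at 107, 85.5, 98.6 and 87.2 CPM in the controls. The gap between the groups was narrower than for Zfp932, with control 2 closest to the knockouts. The log2 fold change was −0.57 (SE 0.10, adjusted p = 0.0121). It lies on the chromosome of the targeted gene Cd274, and the distance between the genes was not examined.

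The lowest fold change belonged to a gene of few reads. Zfp947 measured 1.92, 2.20, 2.13 and 2.74 CPM in the knockouts and 4.8, 4.27, 5.02 and 3.08 CPM in the controls, a log2 fold change of −0.93 with an SE of 0.22 (adjusted p = 0.0464). Zfp934 was at 2.97, 2.26, 3.61 and 3.23 CPM in the knockouts and at 5.74, 4.37, 5.55 and 5.62 CPM in the controls, with −0.82 (SE 0.20, adjusted p = 0.0487). In both genes the groups were separate but the lowest control came close to the highest knockout. Zfp934 shared 24.8% of its 75-base stretches with other transcripts, mostly those of Zfp808.

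Zfp982 measured 4.49, 6.06, 6.86 and 7.58 CPM in the knockouts and 10.6, 10.9, 11.9 and 8.38 CPM in the controls (log2 fold change −0.74, SE 0.18, adjusted p = 0.0477). Zfp959 measured 10.6, 10.5, 10.3 and 12.3 against 16.7, 20.6, 16.4 and 15.1 CPM (log2 fold change −0.65, SE 0.13, adjusted p = 0.0209). Zfp971 measured 23.5, 21.0, 18.6 and 25 against 33.0, 31.8, 35.0 and 29.0 CPM (log2 fold change −0.55, SE 0.11, adjusted p = 0.0255), and 20.2% of its 75-base stretches occurred elsewhere. These 3 genes lie on chromosomes 4, 17 and 2, and in each the lowest control was above the highest knockout.

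The neighbours Zfp942, Zfp943 and Zfp944 fell by similar amounts. Zfp942 was at 18.7, 16.8, 21.3 and 27.1 CPM in the knockouts and 29.8, 27.4, 35.4 and 34.2 CPM in the controls, with knockout 4 just under control 2 (log2 fold change −0.60, SE 0.14, adjusted p = 0.0497). Zfp943 was at 17.9, 18.1, 22.8 and 26.3 against 31.0, 31.0, 38.7 and 31.8 CPM (log2 fold change −0.64, SE 0.14, adjusted p = 0.0307). Zfp944 was at 20.1, 18.5, 21.2 and 24.1 against 27.2, 31.4, 31.2 and 32.9 CPM (log2 fold change −0.55, SE 0.11, adjusted p = 0.0219). In all 3, knockout 4 was the highest knockout library.

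The remaining 4 lower genes changed less. Zfp563 had means of 69.3 ± 7.16 CPM in the knockouts and 96.8 ± 14.1 in the controls (log2 fold change −0.48, adjusted p = 0.0444). Zfp641 had 38.5 ± 5.61 and 52.3 ± 2.29 CPM (−0.44, adjusted p = 0.0462), Zfp760 had 34.9 ± 4.84 and 47.3 ± 1.12 CPM (−0.44, adjusted p = 0.0424), and Zfp983 had 32.3 ± 3.28 and 43.5 ± 2.67 CPM (−0.43, adjusted p = 0.0372). All are SDs over 4 libraries, and in none of the 4 genes did the groups overlap.

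Zfp628, which encodes a DNA-binding activator known from male germ cells, rose. It measured 16, 17.9, 15.7 and 14.7 CPM in the knockouts and 10.4, 11.8, 11.2 and 10.8 CPM in the controls. The lowest knockout was above the highest control. The log2 fold change was 0.54 (SE 0.11, adjusted p = 0.0288). The gene (chr7:4915181-4922003) encodes 16 predicted fingers with no KRAB-like box, and its transcript GC content, 63.5%, was the highest of the 16 called genes.

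**Figure D2:**
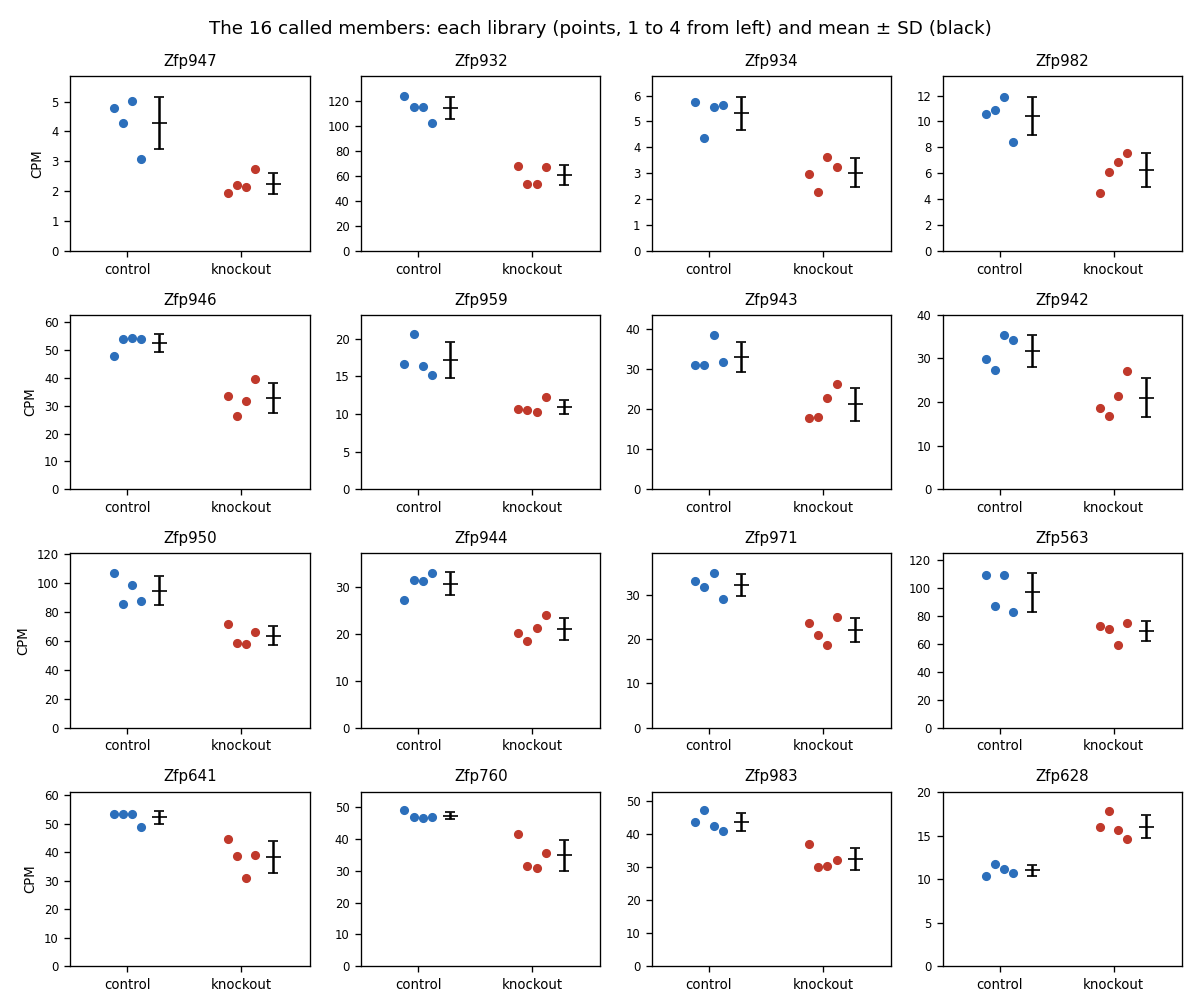
Level in CPM of the 16 called genes in each library (points, replicates 1 to 4 from left to right) with the mean and SD per group (black), each panel starting at 0. In every panel the knockout and control points are separate; for Zfp932 the knockouts reach 68.2 CPM and the controls begin at 103 CPM.

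Few of these calls held with fewer libraries. With each library left out in turn, Zfp932 and Zfp946 passed in all 8 fits and Zfp950 in 7. The others passed in 1 to 4. The count of lower genes was 9, 3, 2 and 12 without knockout 1 to 4, 4, 3 and 3 without control 1 to 3, and 61 without control 4. Over all tested genes, 8.18% were lower without control 4 and 0.268% to 1.13% in the other 7 fits. Without the 3 libraries with over 100 CPM of lens transcript (knockout 3, control 2 and control 3) the count of lower genes of the set was 0. In that fit 0.0461% of all tested genes were lower. At an unadjusted p under 0.05, 22 genes of the set were lower and 1 higher. The share over all tested genes at that unadjusted threshold is not given here, so the 22 cannot be set against it.

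The promoters of the 3 lower genes that passed in at least 7 of those 8 fits, and of Zfp628, are shown because they carry the results that differ in direction and in base composition. Each runs from 250 bases before to 50 bases after the RefSeq start (GRCm38.p6), 5′ to 3′ on the strand of the gene. Capitals mark every match on either strand to 4 short promoter motifs. These are the core of the TATA box (TATAAA), the box named CCAAT, the core of the Sp1 site (GGGCGG) and the core of the Ets site (CCGGAA).
Zfp932, chr5:109996260-109996559, plus strand: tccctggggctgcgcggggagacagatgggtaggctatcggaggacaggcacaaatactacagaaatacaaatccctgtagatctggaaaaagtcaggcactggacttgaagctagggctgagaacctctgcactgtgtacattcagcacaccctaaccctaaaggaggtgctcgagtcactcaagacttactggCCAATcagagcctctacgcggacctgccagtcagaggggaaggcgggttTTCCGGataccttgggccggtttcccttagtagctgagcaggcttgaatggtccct
Zfp946, chr17:22423952-22424251, plus strand: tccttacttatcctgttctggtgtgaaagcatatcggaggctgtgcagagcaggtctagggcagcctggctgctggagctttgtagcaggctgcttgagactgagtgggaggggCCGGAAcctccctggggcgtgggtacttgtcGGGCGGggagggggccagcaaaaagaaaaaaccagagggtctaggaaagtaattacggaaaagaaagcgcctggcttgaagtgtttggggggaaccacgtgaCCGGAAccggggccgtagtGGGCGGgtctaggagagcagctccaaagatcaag
Zfp950, chr19:61140791-61141090, minus strand: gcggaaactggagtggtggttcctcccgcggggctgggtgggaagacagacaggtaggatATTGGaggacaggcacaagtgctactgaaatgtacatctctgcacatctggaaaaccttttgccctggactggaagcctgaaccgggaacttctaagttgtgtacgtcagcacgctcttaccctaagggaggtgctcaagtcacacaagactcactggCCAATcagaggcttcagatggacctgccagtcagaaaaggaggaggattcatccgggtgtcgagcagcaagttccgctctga
Zfp628, chr7:4914967-4915266, plus strand: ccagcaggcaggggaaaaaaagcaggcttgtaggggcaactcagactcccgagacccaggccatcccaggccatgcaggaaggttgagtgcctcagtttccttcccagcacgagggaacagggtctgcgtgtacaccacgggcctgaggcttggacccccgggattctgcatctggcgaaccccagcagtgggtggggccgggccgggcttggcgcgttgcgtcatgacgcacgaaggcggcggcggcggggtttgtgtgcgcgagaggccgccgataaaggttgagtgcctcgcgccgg
Zfp932 and Zfp950 both held CCAAT upstream of the start, and their longest identical run was the 16 bases ggacctgccagtcaga starting at base 215 of the Zfp932 window and base 238 of the Zfp950 window. Zfp946 held GGGCGG and CCGGAA, and the Zfp628 window held no match to any of the 4. Of 155 promoters of these genes in the RefSeq table, 54.8% held CCAAT, 45.8% GGGCGG, 32.9% CCGGAA and 3.23% TATAAA. Over 13146 promoters of tested genes the shares were 38.3%, 59.8%, 24.8% and 7.96%. Among the 14 promoters found for the lower genes, 9 held CCAAT (64.3%), 8 GGGCGG (57.1%), 9 CCGGAA (64.3%) and 0 TATAAA. All the lower genes have a KRAB-like box. Over the 98 promoters of genes of the set with such a box, the shares were 64.3%, 38.8%, 37.8% and 1.02%. A match describes these letters only.

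The 184 genes divided by protein type. A KRAB-like box (at least 8 of 18 consensus residues matched) was found in 110 genes and none in 70, and 4 had no coding model. Zfp638, Zfp655 and Zfp759 matched 7 residues and count as without the box, so some boxes may have been missed. Of the 110, 15 fell and 0 rose, 103 had a negative log2 fold change and the median was −0.33. Of the 70 without the box, 0 fell and 1 rose, 29 were negative and the median was 0.02. The 2 types also differed in transcript GC content (medians of 40.6% with the box and 52% without it). In 34 of the 110 the knockouts all lay below the controls, against 3 of the 70. The number of fingers went with the fold change less closely, with a Pearson r of −0.13 and a Spearman rho of −0.22 across 180 genes, which are not independent. Outside the name range the values were as follows, with no test of a difference. Among other tested genes with at least 3 predicted fingers, 143 with a KRAB-like box had a median of −0.21 (7 lower, 0 higher, 121 negative), and 228 without one had a median of −0.03 (6 lower, 1 higher, 131 negative). Zfp1 to Zfp499, taken by the same rule, gave 160 genes with 2 lower, a median of −0.12 and 118 negative (73.8%).

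Fold changes differed between parts of the name range, which also differ in how many genes have a KRAB-like box. The 54 genes from Zfp900 to Zfp999 held 12 of the 15 lower genes, 52 of them were negative and the median was −0.48. The 130 genes from Zfp500 to Zfp899 held 3 lower genes and had a median of −0.11. KRAB-like boxes were found in 48 of the former and 62 of the latter. Within the KRAB genes the medians were −0.51 and −0.21.

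Of the 15 lower genes, 7 lay in 1 cluster, and no other cluster held more than 1. Neighbouring genes of the set less than 1 Mb apart formed 14 clusters of at least 4, holding 97 genes. The cluster at chr17:21383707-22867309 held 14 genes, all with a KRAB-like box. Of these, 7 fell (Zfp983, Zfp760, Zfp942, Zfp943, Zfp947, Zfp944 and Zfp946), all 14 were negative, 10 had separate groups, and the median was −0.54. The other 7 ranged from −0.67 for Zfp758 (adjusted p = 0.0692) to −0.26 for Zfp820 (adjusted p = 0.644). On chromosome 17 as a whole, 13 of 817 tested genes fell, 9 of which were genes of this set, and the median over the chromosome was 0.00.

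The other clusters held 1 call or 0. The chromosome 2 cluster of 9 genes, which includes Zfp971, had a median of −0.63 with 1 lower gene. That median was the value of Zfp965, at 0.93 CPM in the knockouts and 1.43 CPM in the controls. All of its 75-base stretches occurred elsewhere. Zfp966, Zfp967, Zfp968, Zfp972 and Zfp973 had group means of 0.28 to 1.09 CPM and shared 32.0% to 100% of their stretches. The chromosome 4 cluster of 8, which includes Zfp982, had a median of −0.51 with 1 lower gene. Its group means went down to 0.33 CPM. The cluster on chromosome 17 around Zfp563 (7 genes) had a median of −0.27. On chromosome 7, where 50 of the genes lie, 0 fell and 1 rose, and the cluster of 10 at chr7:127233061-127885996 had a median of 0.01. The chromosome 6 cluster of 5, which includes Zfp746, had a median of 0.15 with no negative value. These clusters also differed in transcript GC content. It was 51.4% to 68.7% in that chromosome 7 cluster and 52.9% to 59.1% in the chromosome 6 cluster. In the chromosome 17 cluster that includes Zfp946 it was 35.4% to 40.7%. The parts of position and GC content were not tested.

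**Figure D3:**
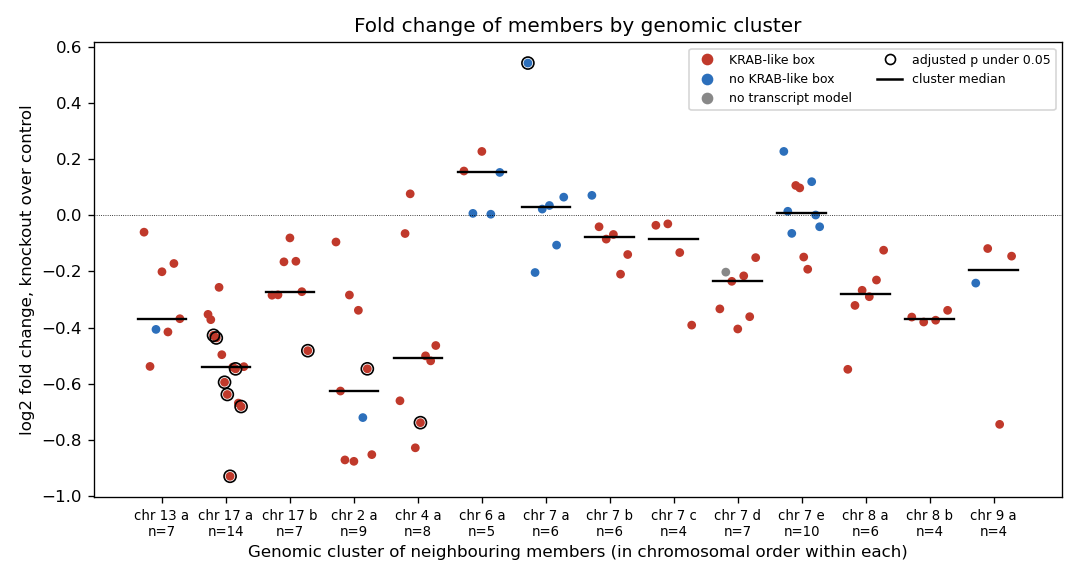
Log2 fold change of the genes in 14 genomic clusters (lines are cluster medians, rings are adjusted p under 0.05, red is with and blue without a KRAB-like box). The cluster of 14 genes on chromosome 17 has a median of −0.54 with 7 rings, while the 10 genes of the last chromosome 7 cluster lie around 0.01.

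GC content of the transcripts moved with the fold change. Over 181 of the genes the Pearson r was 0.70 and the Spearman rho 0.74. Over all 14630 tested genes with a GC value they were 0.23 and 0.33. Both are across genes that share libraries. The median GC content was 40.6% for the KRAB genes, 52% for those without the box and 49.8% for all tested genes. In the lowest of 5 equal GC classes of tested genes (31.0% to 43.9%), the 96 genes of this set had a median log2 fold change of −0.36 and held 14 of the 15 lower genes. The 2830 other genes of that class had a median of −0.14, with 121 lower and 16 higher. The KRAB genes there (82) had −0.37 and the 14 without the box −0.17. In classes 2 to 5, the KRAB genes (13, 7, 6 and 2) had −0.13, −0.36, 0.07 and 0.03. Those without the box (5, 14, 14 and 23) had 0.07, 0.00, −0.00 and 0.09. In the highest class (above 55.6%) 25 genes of this set had 0.09 and the others 0.11. Zfp641, at 50.3% GC, was the only lower gene outside the lowest class.

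**Figure D4:**
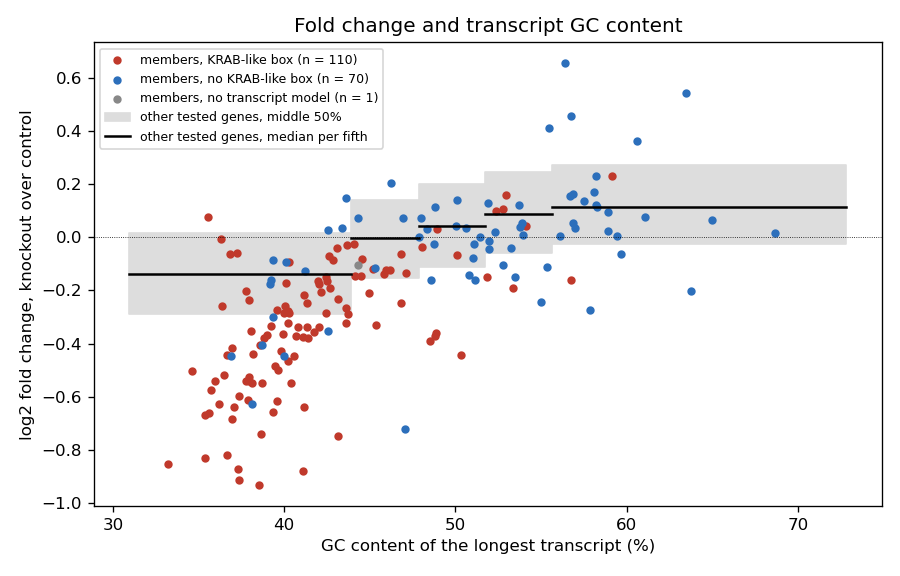
Log2 fold change against the GC content of the longest transcript, for genes with a KRAB-like box (red) and without one (blue); the line and band give the median and the middle 50% of other tested genes in each of 5 GC classes. In the lowest class the band centres on −0.14 and the zinc-finger genes on −0.36, and in the highest class both lie near 0.1.

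With the trend of each library's counts with GC content and gene length removed (a setting chosen after seeing the data), 5 of the 181 genes fell and 0 rose. In that fit 1.05% of all 14630 genes were lower. Without the correction, among genes with a GC value only, 19 of the 181 fell and 1.63% of all were lower. The 5 were Zfp932 (−0.65), Zfp959 (−0.54), Zfp641 (−0.52), Zfp971 (−0.47) and Zfp946 (−0.46). The median was −0.18 over the 181 genes and −0.04 over all 14630 genes in that fit. It was −0.23 for the KRAB genes (102 of 110 negative), −0.07 for those without the box (47 of 70 negative), and −0.36 for the chromosome 17 cluster, of which all 14 were negative and 1 fell. The 48 KRAB genes from Zfp900 to Zfp999 had a median of −0.31 in that fit, with 4 lower, against −0.51 in the reported fit. Zfp628 had 0.35 and no longer passed. Neither did Zfp950, with −0.20 (SE 0.09, adjusted p = 0.221 by edgeR) against −0.57 in the reported fit. The transcript GC content of Zfp950 was 35.8%. For gene length, the Pearson r with the fold change was 0.15 over the 184 genes and −0.01 over all. The calls did follow length: from the shortest to the longest of 5 equal classes of all tested genes, 17, 30, 36, 48 and 96 were lower and 56, 44, 44, 40 and 19 higher. The longest class held 44 genes of the set and 6 of the 15 lower ones. With only the trend with length removed, 20 of the genes fell, including 14 of the 15. In that length fit 1.77% of all tested genes were lower, against 1.35% in the reported fit. Against log2 FPKM, r was 0.11 over the 184 genes.

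The libraries did not all follow their group. The median deviation of the 184 genes from their own 8-library means, in log2 CPM, was −0.06, −0.11, −0.16 and −0.01 in knockout 1 to 4, and 0.12, 0.13, 0.18 and −0.04 in control 1 to 4. Control 4 thus lay among the knockouts. For the KRAB genes the values were −0.13, −0.20, −0.21 and −0.03 in the knockouts and 0.19, 0.20, 0.25 and −0.01 in the controls, so that knockout 4 and control 4 were nearly level. For the genes without the box they were 0.02, 0.03, −0.06 and −0.00 against 0.04, −0.01, 0.07 and −0.07, with the groups overlapping. The other genes of the lowest GC class stood at −0.07, −0.12, −0.06 and 0.02 in the knockouts and 0.06, 0.07, 0.08 and 0.06 in the controls. Their groups did not overlap, and control 4 lay with the other controls. The slope of log2 deviation per 10 points of GC was 0.08, 0.11, 0.08 and −0.01 in the knockouts and −0.10, −0.07, −0.08 and −0.03 in the controls, and knockout 4 and control 4 again lay closest to each other. The summed level of the 184 genes was 5839 ± 189 CPM in the knockouts and 6606 ± 343 CPM in the controls (SD, n = 4).

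**Figure D5:**
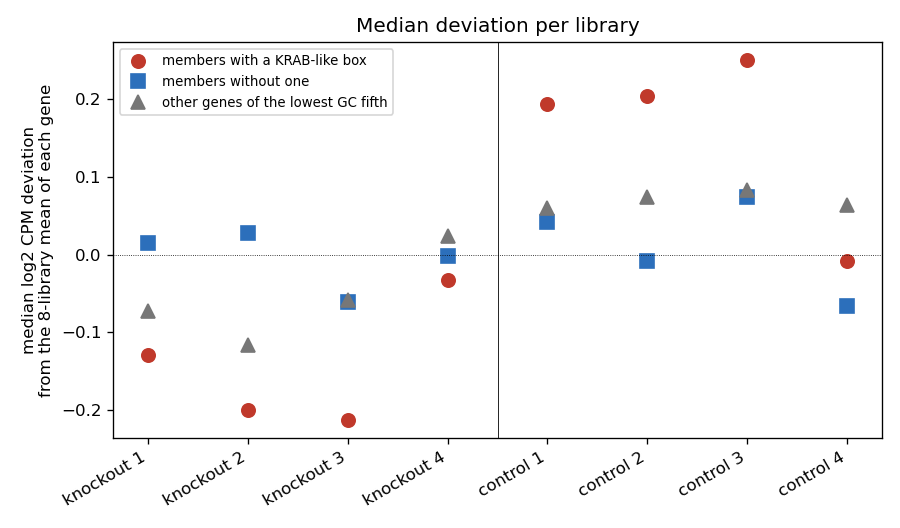
Median log2 CPM deviation from the 8-library mean of each gene, per library, for genes with a KRAB-like box (circles), without one (squares) and for 2830 other genes of the lowest GC class (triangles). Circles run from −0.21 to −0.03 in the knockouts and from −0.01 to 0.25 in the controls, with knockout 4 and control 4 nearly level.

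Depth was 34065854 to 36438248 counts in the knockout libraries and 31743404 to 34054268 in the controls, so every knockout was deeper than every control. Cd274 had 9 to 15 counts in the knockouts and 117 to 165 in the controls, as labelled. As a check of the tissue label, rod genes (8 of 8 tested) summed to 36976 to 54059 CPM in the knockouts and 37446 to 48954 CPM in the controls. Microglial and macrophage markers summed to 156 to 206 CPM in the knockouts and 81.5 to 134 CPM in the controls (5 of 10 higher, 0 lower), and reactive gliosis markers to 559 to 715 and 337 to 402 CPM (7 of 8 higher, 0 lower). Red blood cell genes summed to 1.68 to 4.03 and 10.1 to 14.5 CPM (4 of 4 tested lower). Of 15 tested lens genes, 0 changed, but their sum ran from 43.1 to 3071 CPM in the knockouts and from 66.2 to 7007 CPM in the controls. No marker of these lists was at 0 throughout. The Y-linked gene Kdm5d had 452 to 963 counts in the knockouts and 0 to 4 in the controls. Another Y-linked gene, Eif2s3y, had 0 to 1 counts in the knockouts and 0 to 6 in the controls, and Xist was high in all 8 libraries. The part of these differences, of GC content and of single libraries in the fall of the zinc-finger genes was not tested.

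Of 12 listed KRAB zinc-finger genes known to bind retroelements or related sequences, 8 were in the set. Zfp600, Zfp819 and Zfp936 had 1, 8 and 5 summed counts, and Zfp993 had no entry under that name among the counted genes. Zfp932 was the 1 that fell, 0 rose, and the median log2 fold change of the 8 was −0.26. Zfp809, which recognises the primer binding site of murine leukaemia viruses, had 14.1 ± 1.24 CPM in the knockouts and 15.3 ± 2.70 CPM in the controls (log2 fold change −0.12, SE 0.14, adjusted p = 0.655). Zfp568, known for silencing a placental promoter of Igf2, had 24.6 ± 1.36 and 27.0 ± 3.56 CPM (−0.13, adjusted p = 0.508). The groups overlapped in both. Zfp961 had 31.5 ± 3.21 and 39.9 ± 5.67 CPM (−0.34, adjusted p = 0.127), and Zfp951, at a lower level, 3.70 ± 0.413 and 5.76 ± 1.48 CPM (−0.64, adjusted p = 0.119). Zfp708 had a log2 fold change of −0.54 (adjusted p = 0.149), but all of its 75-base stretches also occurred in transcripts of other genes, most often of Gm28557. Zfp619, the gene with the most predicted fingers (33), had 10.6 ± 0.635 and 12.1 ± 0.618 CPM with separate groups (−0.19, adjusted p = 0.357). Zfp992 had 1.96 ± 0.593 and 2.05 ± 0.627 CPM (−0.06, adjusted p = 0.924) and shared 34.5% of its stretches, mostly with Zfp991.

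The genes known from neurons and the eye gave 0 calls. The list had 12 entries, of which 9 were in the set. Zfp804a and Zfp804b fall outside the naming rule, and Zfp831 had no entry under that name among the counted genes. Zfp503, needed for closure of the optic fissure, measured 12.8, 11.4, 14.1 and 13.9 CPM in the knockouts and 9.37, 12.2, 13.1 and 14.2 CPM in the controls, with overlapping groups (log2 fold change 0.09, SE 0.14, adjusted p = 0.737). Zfp513, linked to inherited retinal degeneration, measured 37.6, 33.0, 29.9 and 31.3 against 30.2, 29.9, 34.6 and 30.3 CPM (0.08, SE 0.10, adjusted p = 0.684). Zfp644, linked to high myopia in people, measured 103, 97.6, 91.5 and 106 against 113, 110, 121 and 106 CPM. There the highest knockout library was just below the lowest control library (−0.17, SE 0.08, adjusted p = 0.229). The others ranged from −0.44 for Zfp711 (adjusted p = 0.252), a gene of X-linked intellectual disability, to 0.36 for Zfp703 (adjusted p = 0.152). Between them lay Zfp746 (0.00), a repressor degraded through parkin, Zfp704 (0.03), and the regulators of neural differentiation Zfp521 (0.14) and Zfp536 (0.16).

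Zinc-finger cofactors of chromatin and transcription also gave 0 calls of 9, with a median of 0.04. Zfp592, Zfp532 and Zfp687, which act together in 1 cofactor complex, had log2 fold changes of −0.02, 0.04 and −0.11. Zfp592 was the most even, at 63.2, 64.6, 63.8 and 63.9 CPM in the knockouts and 59.4, 66.7, 67.4 and 64.6 CPM in the controls. Zfp608 and Zfp609 had 0.11 and 0.02, Zfp516, an activator of brown fat genes, 0.04, Zfp827, which recruits the NuRD complex to telomeres, 0.04, Zfp652 0.20 and Zfp800 −0.09. Adjusted p-values of the 9 ran from 0.315 to 0.93.

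The 5 genes of ribosome and RNA biology gave 0 calls. Zfp598, the ubiquitin ligase that senses collided ribosomes, had 65.3 ± 8.61 CPM in the knockouts and 65.2 ± 5.21 CPM in the controls (log2 fold change 0.00, SE 0.10, adjusted p = 0.989). Zfp622, a maturation factor of the large ribosomal subunit, measured 33.1, 33.4, 35.4 and 33.8 CPM in the knockouts and 30.6, 29.9, 30.9 and 30.9 CPM in the controls. Its groups were separate although the difference was small (0.15, SE 0.08, adjusted p = 0.302). Zfp593 had 0.06, Zfp706 0.04 and the splicing-related Zfp830 −0.16.

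Per length, the most abundant genes of the set were Zfp664 (mean 47.4 FPKM over 8 libraries), Zfp740 (37.5), Zfp706 (33.5), Zfp654 (31.7) and Zfp638 (29.1). In none of them was a KRAB-like box found. The median was 3.62 FPKM over the 110 KRAB genes and 7.89 FPKM over the 70 without the box. Zfp654 had the largest difference of the 5. It measured 152, 158, 182 and 195 CPM in the knockouts and 224, 233, 275 and 206 CPM in the controls, with no overlap, a log2 fold change of −0.45 (SE 0.11) and an adjusted p of 0.0529, which did not pass the threshold of 0.05. Its transcript GC content was 36.9%. Zfp638, which silences unintegrated retroviral DNA, had −0.09 (adjusted p = 0.518), and Zfp664, Zfp740 and Zfp706 lay between −0.08 and 0.04.

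Of the machinery that KRAB zinc-finger proteins recruit, 36 of 37 listed genes were tested, 1 fell and 0 rose, with a median of −0.01. Over all tested genes, 1.35% were lower and 1.2% higher, so 1 call in a list of this size stands out little. Tasor, a subunit of the HUSH silencing complex, measured 107, 90.8, 81.1 and 91.0 CPM in the knockouts and 134, 124, 129 and 141 CPM in the controls. The groups were separate, with a log2 fold change of −0.51 with an SE of 0.09 (adjusted p = 0.0134). Whether the Tasor call held with fewer libraries or after the GC correction is not given here. Trim28 had 125 ± 7.81 CPM in the knockouts and 107 ± 11.2 CPM in the controls (0.23, SE 0.09, adjusted p = 0.179), with control 4 inside the range of the knockouts. Setdb1 had 68.4 ± 7.92 and 74.6 ± 4.58 CPM (−0.13, SE 0.09, adjusted p = 0.458).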

How the data were processed

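Counts of polyadenylated RNA were compared between 4 knockout and 4 control libraries. Reads were handled with fastp, HISAT2 and HTSeq on build mm10, per the submitters' processing notes. Tool versions, annotation, strand and the treatment of shared reads were not given in the sources used here. Whole, unnormalized counts per gene make up the deposited count table. The deposited FPKM table was made by the authors from counts, gene length and library total, and gene length was derived from both. FPKM was used for levels between genes and in alternatives.

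Counts were tested with edgeR 4.0.16 in R 4.3.3 (TMM scaling, filterByExpr with a minimum count of 10 and a minimum total of 15, quasi-likelihood test, no covariate), on all genes and with p-values adjusted by Benjamini and Hochberg over all 16861 tested. All 184 genes of the set passed the filter. The SE is the absolute log2 fold change over the square root of F. CPM use TMM-adjusted library sizes. The test was tried on simulated data first. The 4 libraries of a group differed by more than counting noise, so none was merged.

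Positions and promoters are RefSeq's (GRCm38.p6). GC content, fingers, KRAB-like boxes (at least 8 of 18 consensus residues matched) and shared 75-base stretches come from GENCODE vM21 transcripts of that assembly. A GC value was available for 86.8% of tested genes.

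The genes and lists were chosen with earlier results of these data known. Named are all called genes with separate groups and at least 1 CPM, the 5 highest by FPKM, all measured genes of 4 functional lists, and of 37 co-repressor genes those called, with Trim28 and Setdb1. Zfp553, Zfp710, Zfp758, Zfp820, Zfp965, Zfp966, Zfp967 and Zfp973 were named after their values were seen. Alternatives were RLE scaling, library totals, filters on low counts, DESeq2 1.42.0, limma 3.58.1 on log2(FPKM + 1) and log2(FPKM + 0.1), a length correction, a replicate block, fewer libraries and protein-coding genes, and, added after seeing the data, a GC correction and its gene subset.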

Additional observations from a re-analysis of the deposited data

Results flagged for a closer look

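In 9 of 102 groups of 4 libraries, over the named genes and the median of the set, 1 library lay far from the other 3 by Dixon's ratio. Chance alone would flag about 1 group in 20. Zfp513 stood at 34.6 CPM in control 3 and at 29.9 to 30.3 CPM in the other controls. Zfp641 stood at 48.9 CPM in control 4 and at 53.4 to 53.6 CPM in the other controls. Zfp708 stood at 12.1 CPM in knockout 4 and at 7.13 to 7.39 CPM in the other knockouts. Zfp746 stood at 29.1 CPM in control 2 and at 32.2 to 32.5 CPM in the other controls. Zfp760 stood at 48.9 CPM in control 1 and at 46.6 to 46.8 CPM in the other controls. Zfp934 stood at 4.37 CPM in control 2 and at 5.55 to 5.74 CPM in the other controls. Zfp943 stood at 38.7 CPM in control 3 and at 31 to 31.8 CPM in the other controls. Zfp946 stood at 47.8 CPM in control 1 and at 53.9 to 54.1 CPM in the other controls. Zfp992 stood at 2.98 CPM in control 2 and at 1.63 to 1.81 CPM in the other controls. Of these genes, Zfp641, Zfp760, Zfp934, Zfp943 and Zfp946 are among the 15 that fell. In Zfp641, Zfp934 and Zfp946 the distant control was nearer to the knockouts, and in Zfp760 and Zfp943 farther from them.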

How the results depend on the processing

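The median log2 fold change of the genes of the set that each fit tested (176 to 184) stayed negative under every alternative run, between −0.10 and −0.22. The counts moved more. Lower genes numbered 7 with library totals, 25 without a filter, 37 with DESeq2, 3 and 5 with limma on log2(FPKM + 1) and log2(FPKM + 0.1), 0 without the lens libraries, 5 with the GC and length correction, and 2 to 61 with 1 library left out. Of all genes in each fit, 0.777% were lower with library totals, 1.39% without a filter and 2.84% with DESeq2. The shares without a filter and with DESeq2 are over 25477 genes, low-count genes included, against 16861 in the reported fit. The limma settings gave 0.463% and 0.611%. The share was 0.0461% without the lens libraries, 1.05% with the GC and length correction, and 0.268% to 8.18% with 1 library left out. Changed genes over the whole table numbered 690 without a filter, 1320 with DESeq2, 228 with limma on log2(FPKM + 1), 15 without the lens libraries, and 108 to 3209 with 1 library left out. The number of higher genes was 0 without the lens libraries and with the GC and length correction, and 0 to 3 with 1 library left out. Named genes past the threshold numbered 16 in the reported fit, 8 with library totals, 4 and 6 with the limma settings, 0 without the lens libraries, 5 with the GC and length correction, and 2 to 22 with 1 library left out. The cause of these changes was not tested.

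Same-numbered knockout and control libraries had correlations of 0.21, −0.04, 0.12 and 0.01 in their deviations, so the numbers were not taken to pair them. With the replicate block 7 genes fell and 0 rose, 228 genes changed over the table and 6 named genes passed. Of all genes in that fit 0.635% were lower. With the block and the length correction 0 rose and 9 named genes passed. Higher calls were 47.2% of all calls, 61.2% with library totals, 65.8% and 64.5% with the limma settings, 63.2% without knockout 2, 57.4% without knockout 3 and 60.5% without control 1.

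Some named genes that had not passed the test changed sign, among them Zfp644 (reported at −0.17), Zfp830 (−0.16), Zfp568 (−0.13) and Zfp687 (−0.11). With RLE scaling these were Zfp598 −0.0024, Zfp746 −0.0015. With library totals these were Zfp592 0.0054. With DESeq2 these were Zfp598 −0.0012, Zfp746 −0.00013. With limma on log2(FPKM + 1) these were Zfp592 0.0058. With limma on log2(FPKM + 0.1) these were Zfp592 0.0065. With the length correction these were Zfp592 0.0073, Zfp598 −0.044, Zfp706 −0.0039, Zfp746 −0.019. With the replicate block these were Zfp598 −0.0023. With the block and the length correction these were Zfp592 0.011, Zfp598 −0.048, Zfp706 −0.0031, Zfp746 −0.019. Without the lens libraries these were Zfp516 −0.0094, Zfp532 −0.042, Zfp568 0.014, Zfp592 0.050, Zfp609 −0.071, Zfp664 0.018, Zfp687 0.0080, Zfp704 −0.060, Zfp740 0.011, Zfp746 −0.043, Zfp827 −0.11, Zfp830 0.036, Zfp992 0.35. With protein-coding genes only these were Zfp598 −0.017, Zfp746 −0.017. With the GC and length correction these were Zfp503 −0.079, Zfp513 −0.11, Zfp516 −0.037, Zfp532 −0.048, Zfp593 −0.11, Zfp598 −0.18, Zfp609 −0.050, Zfp638 0.036, Zfp644 0.0041, Zfp746 −0.16, Zfp800 0.11, Zfp827 −0.0059, Zfp992 0.19. With only genes that have a GC value these were Zfp598 −0.016, Zfp746 −0.017. With 1 library left out, the ranges of those that changed sign were Zfp503 −0.013 to 0.17, Zfp516 −0.033 to 0.090, Zfp532 −0.091 to 0.12, Zfp592 −0.052 to 0.0084, Zfp593 −0.018 to 0.19, Zfp598 −0.10 to 0.046, Zfp609 −0.049 to 0.068, Zfp664 −0.064 to 0.0090, Zfp704 −0.018 to 0.092, Zfp706 −0.0071 to 0.088, Zfp746 −0.025 to 0.020, Zfp827 −0.059 to 0.17, Zfp992 −0.27 to 0.18. No value that had changed sign passed the test.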
